A study of Mus musculus with 8 samples.

Results

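The complement components and clusterin examined here were 9 genes of the Hepa 1-6 transcriptome, of 47434 genes for which the deposited counts could be summed. They were taken by name: the proteases C1s1 and C1ra, the components C2, C3, C4b and Cfb, and the regulators Cd55, Serping1 and Clu. Poly-A RNA was sequenced from Hepa 1-6, an established line of mouse hepatoma cells. There were 4 libraries of cells carrying a G9a knockout and 4 libraries of WT (wild-type) cells of the same line, with no treatment named for either group. G9a, encoded by Ehmt2, is a histone methyltransferase that acts on lysine 9 of H3 and is known for silencing genes. The labels do not say how the knockout was made, whether it is 1 clone, or whether libraries came from separate cultures, so the p-values rest on the spread among these libraries, which may be technical.

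Complement is a cascade of plasma proteins, most of them made by the liver, that marks cells and microbes for removal. In the classical pathway the C1r and C1s proteases of the C1 complex cut C4 and C2, which together form an enzyme that splits C3. The alternative pathway builds a similar enzyme from C3 and factor B, and both lead to C5 and the pore-forming terminal components. Host cells are protected by soluble inhibitors, such as the C1 inhibitor (Serping1) and clusterin (Clu), and by membrane proteins such as decay-accelerating factor (Cd55). Clusterin is also an extracellular chaperone of misfolded proteins.

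Library totals lay between 58256100 and 75025236 counts, and no library was a repeat of another of its group (smallest chi-square per degree of freedom between them 10.94). Ehmt2, the targeted gene, was at 117 to 120 CPM in the knockout libraries and at 298 to 345 CPM in the wild-type libraries (log2 fold change -1.41 ± 0.05, SE, n = 4 per group; edgeR, adjusted p = 3.82e-10). CPM are counts scaled to a common library total with TMM factors, and every log2 fold change is knockout minus wild type. Of 13 hepatocyte markers matched in the annotation, 7 had no count in any library, among them albumin (Alb) and the liver transcription factor Hnf4a. The 2 that could be tested were Rbp4, which fell from 4.62 ± 0.88 to 2.81 ± 0.43 CPM (edgeR, adjusted p = 0.00321), and Apoa2, at 0.885 ± 0.277 against 0.996 ± 0.394 CPM in the wild type (adjusted p = 0.721).

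Of the 9 genes, 6 rose in the knockout (Clu, C1s1, C1ra, C3, Serping1 and C4b), C2 and Cfb did not pass the test, and Cd55 had no count. A gene is said to have risen or fallen when its adjusted p was under 0.05. Over the whole transcriptome 23.6% of the 15840 tested genes rose and 23.6% fell, 47.2% in all. Scaled by library size without TMM, rises made up 62.4% of the calls in place of 50.1%. The median log2 fold change of the 8 tested members was 1.62, against 0.004 over all tested genes. These 8 are not all members, and C1ra and C4b passed the filter on low counts in 4 knockout libraries but in only 3 and 1 of the wild-type libraries, so the count and the median are descriptions. For these 6 genes every knockout library lay above every wild-type library, as for 22.5% of all tested genes, while 21.4% had every knockout library below. All 6 were at least 2-fold higher, a size of rise called for 7.89% of all tested genes.

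The start regions shown are those of C1s1, its copy C1s2 and C3, which rose and whose start sites agree between RefSeq and the annotation. C1rl, described below, also rose and has an agreeing start, but its window is not shown. Each is the 250 bases before the start, 5′ to 3′ on the gene's strand (RefSeq, GRCm38.p6). Their places are chr6:124542360-124542609 for C1s1, chr6:124636086-124636335 for C1s2 and chr17:57228137-57228386 for C3, all on the minus strand. Capitals mark matches to TTGCNNAA, a core sequence bound by C/EBP factors, on either strand.
C1s1: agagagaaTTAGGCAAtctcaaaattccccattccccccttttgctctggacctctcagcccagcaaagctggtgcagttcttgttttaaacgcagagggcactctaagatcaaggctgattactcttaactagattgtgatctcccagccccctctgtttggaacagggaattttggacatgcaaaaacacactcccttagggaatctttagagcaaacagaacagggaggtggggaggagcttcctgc
C1s2: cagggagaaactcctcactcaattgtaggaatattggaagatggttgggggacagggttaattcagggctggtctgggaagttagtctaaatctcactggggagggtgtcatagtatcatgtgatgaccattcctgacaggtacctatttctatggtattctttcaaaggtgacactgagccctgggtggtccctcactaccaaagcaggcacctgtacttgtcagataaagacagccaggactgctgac
C3: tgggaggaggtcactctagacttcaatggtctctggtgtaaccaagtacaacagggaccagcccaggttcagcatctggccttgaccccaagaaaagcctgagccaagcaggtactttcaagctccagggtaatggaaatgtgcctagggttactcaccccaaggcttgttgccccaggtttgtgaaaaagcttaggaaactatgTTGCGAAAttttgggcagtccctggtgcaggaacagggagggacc
RefSeq windows were found for 4 of the 9 members (C1s1, C1ra, C3 and Cd55). The windows shown for C1s1 and C3 had 1 match each and that of C1s2 had none, and 9.56% of 32851 windows of the same length held at least 1 match. The match of C3 lay 45 bases before its start and that of C1s1 242 bases. RefSeq has a second start for C1s1, 38 bases downstream, whose window held no match. That is the start of the coding form C1s1-203, which held 662 of 1259 C1s1 counts and 85.7% to 100% of them in the wild-type libraries. None of these 3 windows held the STAT sequence TTCNNNGAA, the heat shock sequence GAANNTTC, the AP-1 sequence TGANTCA, the GC box GGGCGG or the TATA sequence TATAAA, each searched on both strands. These were present in 7.02%, 6.69%, 6.75%, 32.7% and 12.4% of all windows. Windows of other genes that rose are not shown. That of C1rl had 1 C/EBP match, 243 bases before the start, and that of C1ra had none of the sequences searched. That of C1rb had 1 STAT and 1 C/EBP match, and that of Hc, which encodes C5, had 1 TATA match. The RefSeq starts of C1ra, C1rb and Hc lie 216, 136 and 26 bases from the annotated ones. The 3 windows shown were poor in CpG. C1s1 and C3 held 1 CpG each and C1s2 held 0, against a median of 6 over all windows. Of all windows, 18.8% held 1 or fewer. Among the other genes that rose, the window of the member C1ra held 5, and those of C1rb, Hc and C1rl held 3, 2 and 1. The window of Cd55, the gene without counts, held 8. A match or its absence describes these letters only.

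**Figure D1:**
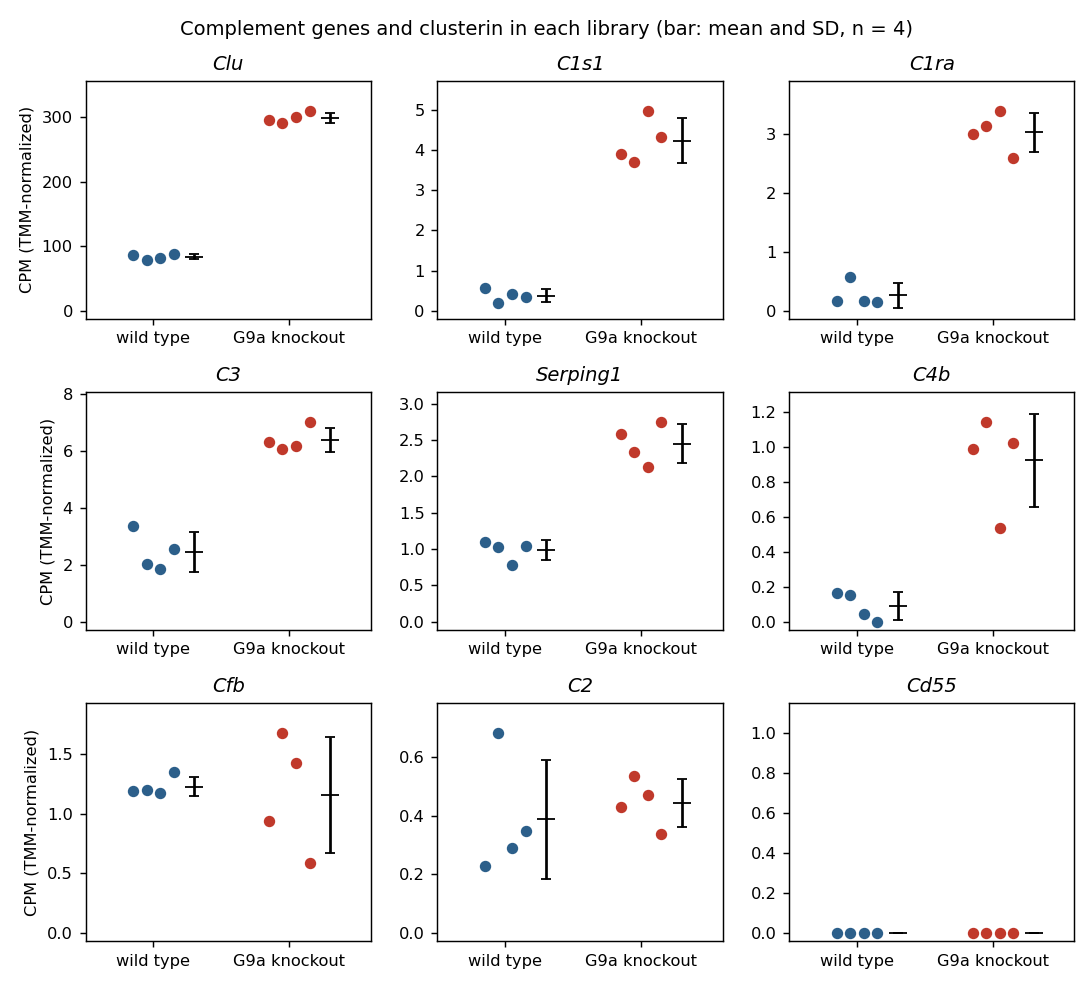
Levels of the 9 genes in each library, in CPM on a linear axis of its own for each gene; each point is 1 library and the bar beside the points is the mean and SD of 4 libraries. The groups are apart for Clu, C1s1, C1ra, C3, Serping1 and C4b, they overlap for Cfb and C2, and Cd55 is at 0 throughout.

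C1s1 and C1ra encode the serine proteases that start the classical pathway once C1q has bound its target. C1s1 (ENSMUSG00000038521, chromosome 6, 124530345 to 124542359, GRCm38) was at 3.91, 3.71, 4.98 and 4.33 CPM in the knockout libraries and at 0.555, 0.182, 0.420 and 0.333 CPM in the wild-type libraries. Every knockout library lay far above every wild-type library. The log2 fold change was 3.50 ± 0.27 (edgeR, adjusted p = 2.55e-07), which is 11.3-fold. C1ra (ENSMUSG00000055172, chromosome 6, 124512405 to 124523443) was at 3.0, 3.13, 3.40 and 2.59 CPM in the knockout and at 0.163, 0.575, 0.159 and 0.143 CPM in the wild type. Wild-type replicate 2 stood above the other wild-type libraries and still well below the knockout. The log2 fold change was 3.53 ± 0.38 (edgeR, adjusted p = 5.67e-06), and 4.27 without wild-type replicate 2.

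In the mouse these proteases come as near-identical gene copies side by side, and reads may have been assigned to either copy. Between the transcripts with the most counts, C1s1 and C1s2 were 96.0% identical over 2642 aligned bases, and 26.9% of the 50-base words of C1s2 occurred unchanged in C1s1. C1ra and C1rb were 98.1% identical over 2427 bases and shared 59.2% of such words. Both copies rose. C1s2 was at 6.89 ± 1.02 CPM against 1.14 ± 0.21 CPM in the wild type (SD, n = 4; log2 fold change 2.59 ± 0.17, edgeR, adjusted p = 5.94e-08). C1rb was at 0.541 ± 0.194 CPM against 0.049 ± 0.049 CPM (edgeR log2 fold change 3.39 ± 0.67, adjusted p = 0.000949). Summed over both copies, the log2 fold change was 2.87 for C1s and 3.51 for C1r, and both were called. C1s2 held most C1s counts in each library, 54.5% to 69.1% in the knockout and 69.4% to 82.6% in the wild type (two-sided exact permutation p = 0.0286, the smallest possible with 4 against 4; 0.0429 after adjustment over 3 such shares). The share of C1rb in the C1r counts was 14.9% ± 3.34 in the knockout and 20.9% ± 17.5 in the wild type (exact permutation p = 0.571, the same after adjustment).

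C1rl, a C1r-like protease gene next to C1ra, also rose, from 0.572 ± 0.337 to 2.37 ± 0.145 CPM (log2 fold change 2.04 ± 0.33, edgeR, adjusted p = 0.000203). The 5 genes C1rl, C1ra, C1s1, C1rb and C1s2 lie within 143 kb of chromosome 6 (124493113 to 124636085). Just outside, Lpcat3 fell by 0.37 on the log2 scale and Pex5 by 0.19, while Clstn3, next to C1rl, rose from 0.053 to 1.24 CPM. Over 60 tested genes within 5 Mb of C1s1 with at least 5 CPM, the median log2 fold change was -0.009, with 11 higher and 17 lower. Among all 10222 genes reaching 5 CPM in either group, 3037 rose and 2972 fell.

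**Figure D2:**
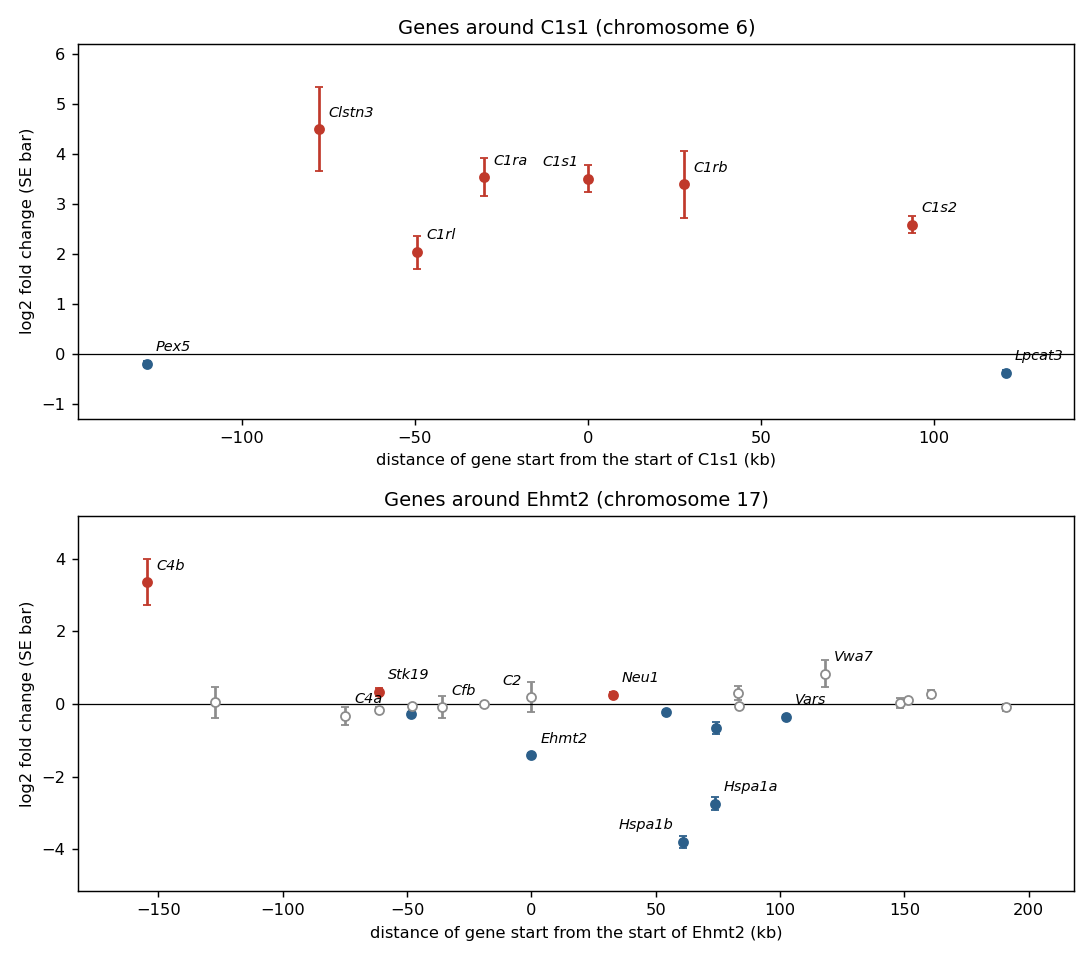
Log2 fold change with its SE for tested genes around C1s1 (upper panel) and around Ehmt2 (lower panel), against the distance of the gene start in kb; filled points passed an adjusted p of 0.05, red higher and blue lower in the knockout. The C1r and C1s genes and Clstn3 stand above 2, with Pex5 and Lpcat3 below 0 at either end; near Ehmt2, C4b is raised while C2 and Cfb are at 0.19 and -0.09.

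C4 and C2 are cut by C1s. C4b (ENSMUSG00000073418, chromosome 17, 34728380 to 34743882) was at 0.988, 1.14, 0.538 and 1.02 CPM in the knockout and at 0.163, 0.151, 0.0435 and 0 CPM in the wild type. The groups did not overlap, and all 8 values were low. The log2 fold change was 3.35 ± 0.63 (edgeR, adjusted p = 0.000647). This value depends on the copy C4a, 96.1% identical over 5367 bases. C4a was at 1.47 ± 0.204 CPM in the knockout and at 1.85 ± 0.517 CPM in the wild type (adjusted p = 0.285). Summed over both copies, the log2 fold change was 0.30 and not called (edgeR, adjusted p = 0.314). C4b held 27.1% to 46.2% of the C4 counts in the knockout and 0% to 7.81% in the wild type. The counts therefore show another division between C4b and C4a, and the change of their sum did not pass the test.

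**Figure D3:**
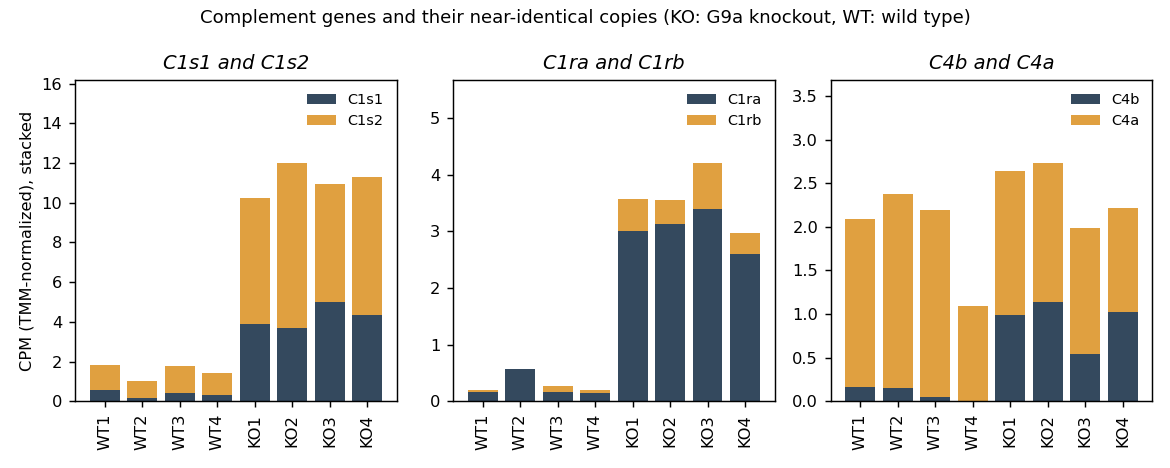
Stacked levels in CPM of C1s1 with C1s2, C1ra with C1rb, and C4b with C4a in each library; WT is wild type and KO is G9a knockout. The sums of the C1 proteases are higher in every knockout library, whereas the C4 sums, 1.98 to 2.73 CPM in the knockout and 1.10 to 2.38 CPM in the wild type, overlap.

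C2 (ENSMUSG00000024371, chromosome 17, 34862604 to 34898265) was at 0.429, 0.534, 0.471 and 0.336 CPM in the knockout and at 0.228, 0.681, 0.290 and 0.349 CPM in the wild type. The groups overlapped, with wild-type libraries both highest and lowest (log2 fold change 0.19 ± 0.42, edgeR, adjusted p = 0.747). Few of these counts were on coding transcripts. Of 223 counts over the 8 libraries, 202 were on the noncoding transcripts C2-207 and C2-208, and 21 on coding transcripts. C2-207 begins at position 34898265, 0.204 kb from the start of Ehmt2 at 34898469 on the other strand. Whether the counting used strand is not given in the sources used here, so reads of such neighboring genes may not be told apart. The source of the noncoding counts was not tested.

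Cfb encodes factor B, the protease of the alternative pathway, and lies beside C2. Cfb (ENSMUSG00000090231, chromosome 17, 34856374 to 34862518) was at 0.936, 1.68, 1.43 and 0.589 CPM in the knockout and at 1.19, 1.20, 1.17 and 1.349 CPM in the wild type. The knockout libraries lay on both sides of the wild type. The log2 fold change was -0.09 ± 0.30 (edgeR, adjusted p = 0.84), and it took the other sign without knockout replicate 1 or 4 (0.002 and 0.131). C4b, C2 and Cfb lie within 154.6 kb of the Ehmt2 start. Of 20 tested coding genes within 200 kb of that start, 3 rose and 6 fell, with Ehmt2 itself among those that fell. Over all tested genes 23.6% rose and 23.6% fell. The 20 genes had a median log2 fold change of -0.06. Among them, the heat shock genes Hspa1b and Hspa1a, near-identical copies, fell, with log2 fold changes of -3.79 and -2.74.

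C3 is the central component on which all pathways meet. C3 (ENSMUSG00000024164, chromosome 17, 57203970 to 57228136) was at 6.30, 6.08, 6.15 and 7.01 CPM in the knockout and at 3.38, 2.01, 1.84 and 2.56 CPM in the wild type. The lowest knockout library was above the highest wild-type library. The log2 fold change was 1.39 ± 0.18 (edgeR, adjusted p = 2.35e-05), or 2.61-fold. All 2400 of its counts were on the coding transcript C3-201.

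Serping1 encodes the C1 inhibitor, a serpin that blocks C1r and C1s and also kallikrein of the contact system. Serping1 (ENSMUSG00000023224, chromosome 2, 84765387 to 84775444) was at 2.59, 2.34, 2.14 and 2.75 CPM in the knockout and at 1.09, 1.03, 0.783 and 1.05 CPM in the wild type. The groups were apart, and the log2 fold change was 1.31 ± 0.19 (edgeR, adjusted p = 8.87e-05). Its surroundings moved the other way. Of 20 tested genes within 5 Mb with at least 5 CPM, 16 fell and 0 rose, with a median log2 fold change of -0.588, so Serping1 stood 1.90 above its neighbors. Among all 10222 genes reaching 5 CPM in either group, 2972 fell and 3037 rose. The fitted rises of C1s1 and C1ra were larger than that of their inhibitor, a difference that was not tested. Per length, the summed TPM of C1s1, C1s2, C1ra and C1rb was 3.31 to 4.66 times that of Serping1 in the knockout libraries and 0.941 to 1.66 times in the wild-type libraries. TPM are counts divided by transcript length and scaled to the same total in each library.

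Clu was the only abundant member. Clu (ENSMUSG00000022037, chromosome 14, 65968483 to 65981547) was at 296, 292, 300.4 and 309.7 CPM in the knockout and at 85.8, 78.4, 82.3 and 87.2 CPM in the wild type. The libraries of each group lay close together and the groups far apart. The log2 fold change was 1.84 ± 0.05 (edgeR, adjusted p = 1.49e-11), or 3.59-fold, and 608 of all tested genes (3.84%) were called with a rise at least as large. Clu took 94.2% of the counts of the 9 genes in the knockout and 93.6% in the wild type. It ranked 425th by TPM among all genes in the knockout and 1794th in the wild type. The coding transcript Clu-201 held 98.7% of its counts. A shorter coding form, Clu-209, held 1.02%, 1.70%, 0.761% and 0.928% in the knockout libraries and 0.590%, 0.656%, 0.634% and 0.291% in the wild-type libraries (two-sided exact permutation p = 0.0286; 0.0429 after adjustment over 3 shares). Counts of single transcripts are less certain than their sum: 304 of 309 C1s1 counts of knockout replicate 4 were on C1s1-203, but 9 of 296 in knockout replicate 3. The other main coding form of C1s1, which starts at the window shown for that gene, had 177, 114, 277 and 0 counts in the knockout libraries and 0 in each wild-type library.

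Cd55 (ENSMUSG00000026399, chromosome 1, 130439027 to 130462744) had 0 counts in all 8 libraries over its 5 annotated transcripts. A count of 0 allows up to 3 counts, which is 0.040 to 0.0515 CPM of the library total. The copy Cd55b was also at 0. No direction can be given for either gene.

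Ordered by TPM in the knockout, Clu stood at 342 ± 8.34, followed by C1s1 at 3.27 ± 0.49, Serping1 at 2.87 ± 0.32, C3 at 2.54 ± 0.15, C1ra at 2.07 ± 0.23, C2 at 1.78 ± 0.31, Cfb at 1.44 ± 0.43 and C4b at 0.517 ± 0.161 (SD, n = 4). From C1s1 to Cfb, neighbors in this order differed by less than their SDs added together, except C3 and C1ra. In the wild type Clu stood at 90.4 ± 4.41, C2 at 1.40 ± 0.84, Cfb at 1.37 ± 0.77, Serping1 at 1.13 ± 0.16, C3 at 0.925 ± 0.268, C1s1 at 0.293 ± 0.117, C1ra at 0.170 ± 0.138 and C4b at 0.065 ± 0.048 TPM. Neighbors from C2 to C3 differed by less than their SDs added together, but the place of C2 rests on 2 short noncoding transcripts that held 202 of its 223 counts, and part of the Cfb counts also lay on short transcripts, which raises the TPM of both genes. C1s1 stood below Serping1 in the wild type, whereas in the knockout they differed by less than their SDs added together.

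The wider complement system was described with 6 lists holding 57 genes, the 9 members included. Of these, 22 had no count in any library and 26 could be tested. Among the 26, 15 rose, 2 fell and 9 did not pass, so 65.4% were called, against 47.2% of all tested genes. Their median log2 fold change was 0.88. Since 7 of the 26 passed the filter in all knockout libraries but not in all wild-type libraries, these figures are a description and no support for a direction. In a test against a 1.5-fold change 11 of the genes were called, and among genes reaching 5 CPM in either group 7 were.

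**Figure D4:**
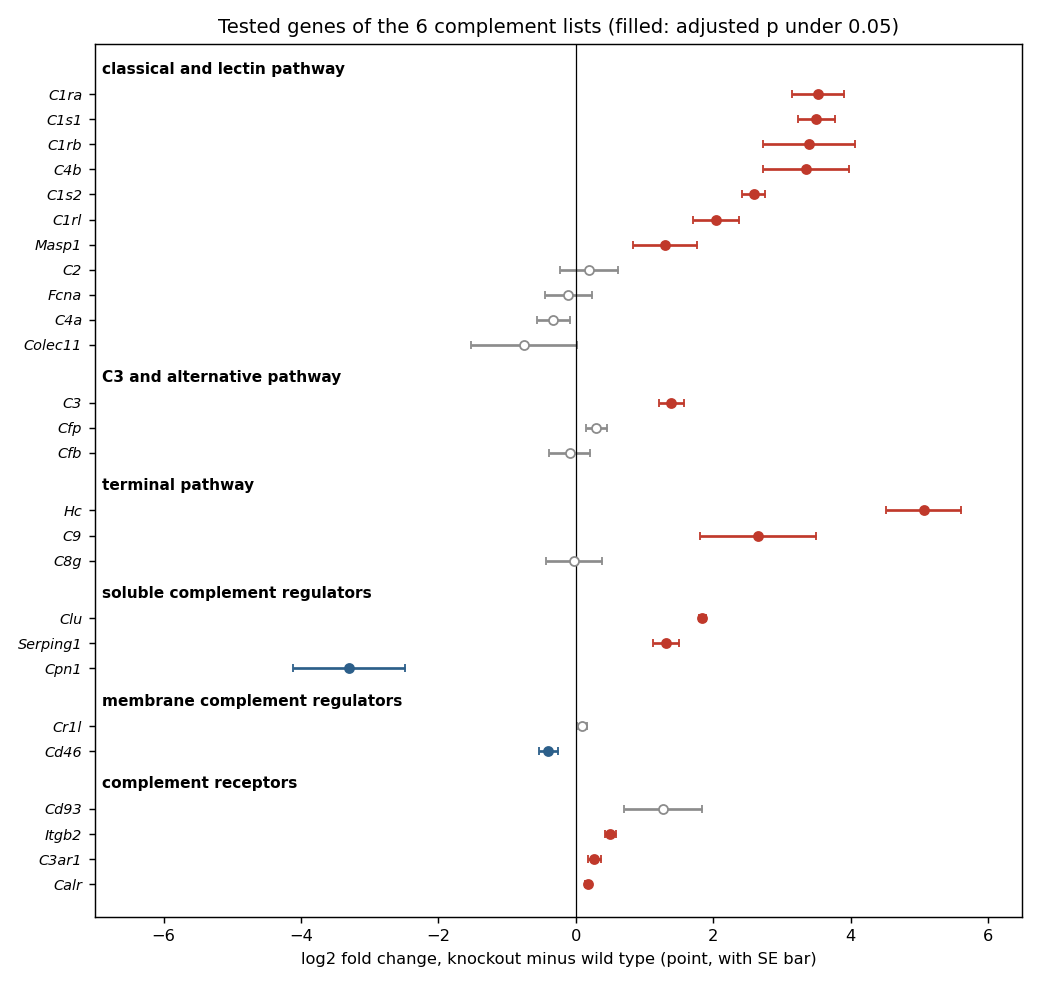
Log2 fold change, knockout minus wild type, with its SE for the 26 tested genes of the 6 complement lists; filled points passed an adjusted p of 0.05, red higher and blue lower in the knockout. The largest rise is that of Hc at 5.06, followed by C1ra, C1s1, C1rb and C4b; Cpn1 and Cd46 are the only genes called lower.

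Of 19 classical and lectin pathway genes 11 were tested, 7 rose and none fell, while 23.6% of all tested genes rose. Of the 11, 4 passed the filter in all knockout libraries but not in all wild-type libraries (C1ra, C1rb, Masp1 and C4b). All genes of C1q (C1qa, C1qb and C1qc), the recognition subunit that macrophages make, were at 0 in every library. Masp1, a lectin pathway protease, rose from 0.264 ± 0.091 to 0.655 ± 0.356 CPM (edgeR, adjusted p = 0.0348), but it was called in only 9 of 17 alternative settings. The lectins Mbl1 and Mbl2 were at 0. Of the 3 tested genes of the C3 and alternative pathway list, C3 alone rose. Cfp, which stabilizes the alternative pathway enzyme, was at 3.87 ± 0.447 against 3.14 ± 0.507 CPM (adjusted p = 0.127), and Cfd had no count.

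Of 7 terminal pathway genes 3 were tested and 2 rose, while 23.6% of all tested genes rose. Both that rose passed the filter in all knockout libraries but not in all wild-type libraries. Hc, which encodes C5, was at 6.16, 7.77, 6.66 and 4.63 CPM in the knockout and at 0.506, 0.212, 0.0435 and 0 CPM in the wild type. Its rise was the largest of the tested complement genes (log2 fold change 5.06 ± 0.54, edgeR, adjusted p = 5.45e-06). C9 rose from 0.054 ± 0.072 to 0.347 ± 0.129 CPM (adjusted p = 0.0195) and lost its call in 4 of 17 settings. C6, C7, C8a and C8b were at 0, so genes for a complete terminal complex were not detectable in either group.

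Among regulators, Cpn1, a subunit of the carboxypeptidase that inactivates complement peptides, fell from 0.270 ± 0.080 to 0.027 ± 0.031 CPM (edgeR, adjusted p = 0.00444). The plasma regulators C4bp and Vtn were at 0. On the membrane side Cr1l (Crry), the mouse inhibitor of C3 cleavage, was the most abundant, at 34.5 ± 1.08 against 32.5 ± 2.79 CPM (adjusted p = 0.304). Cd46 was at 2.55 ± 0.175 against 3.37 ± 0.327 CPM, a fall (adjusted p = 0.0322) that was called in 7 of 17 settings. Of 4 tested receptor genes 3 rose, while 23.6% of all tested genes rose. The other, Cd93, was not called (edgeR, adjusted p = 0.0886). It passed the filter in 4 knockout libraries but in only 2 wild-type libraries, so this count is a description. Itgb2, the beta chain of the C3 fragment receptors, went from 17.6 ± 1.74 to 24.9 ± 1.37 CPM (edgeR, adjusted p = 0.000163). Its partner chain Itgam was at 0. Another partner chain, Itgax, had 3, 10, 0 and 7 counts in the knockout libraries and 0 in each wild-type library, and was not tested. The C3a receptor C3ar1 went from 8.26 ± 1.06 to 9.95 ± 0.701 CPM, with overlapping groups (adjusted p = 0.0498), and it was called in 8 of 18 settings. Calr, a chaperone that also binds C1q, rose by a log2 fold change of 0.17 ± 0.04.

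Acute phase genes, which the liver induces together with C3 and factor B, were low or without counts in most cases: of 22, 10 had no count and 5 could be tested. All 5 rose, while 23.6% of all tested genes rose. Of these 5, 4 passed the filter in all knockout libraries but not in all wild-type libraries. Cp, the copper carrier ceruloplasmin, went from 5.54 ± 1.07 to 37.7 ± 1.6 CPM (log2 fold change 2.76 ± 0.11, edgeR, adjusted p = 1.19e-09). Hpx went from 0.089 ± 0.065 to 1.36 ± 0.064 CPM and Lbp from 0.287 ± 0.107 to 1.51 ± 0.355 CPM. Serpina3n had 23, 44, 30 and 19 counts in the knockout and 0 in each wild-type library. Of 6 contact and kinin system genes, the other cascade that Serping1 restrains, none could be tested and 5 had no count.

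Genes of signals known to induce complement were called in both directions: of 18 tested, 9 rose and 3 fell. Over all tested genes 23.6% rose and 23.6% fell. Stat3, which acts downstream of interleukin 6, went from 103 ± 5.60 to 148 ± 5.86 CPM (edgeR, adjusted p = 2.61e-06). Cebpb, a C/EBP factor, fell from 123 ± 6.53 to 56.5 ± 7.36 CPM, and Ifngr2, a chain of the interferon gamma receptor, from 16.1 ± 1.20 to 8.67 ± 1.12 CPM. Among clusterin receptors and partners, the lipoprotein gene Apoe rose from 4.58 ± 1.08 to 11.3 ± 1.22 CPM (adjusted p = 9.22e-06). The receptor Vldlr fell from 15.4 ± 0.80 to 7.79 ± 0.82 CPM (adjusted p = 1.46e-06), and Lrp8 was at 103 ± 10.9 against 102 ± 22.5 CPM (adjusted p = 0.944).

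Macrophages and fibroblasts also make C1r, C1s, C3 and C1 inhibitor, so their markers are given beside these genes. In bulk RNA, fewer cells of a type and less RNA per cell cannot be told apart. Of 12 macrophage and myeloid markers 4 were tested, 1 rose (Ptprc, from 0.437 ± 0.046 to 1.08 ± 0.077 CPM) and 1 fell (Cd14). Their sum was 15.1 to 19.2 CPM in the knockout and 18.0 to 20.8 CPM in the wild type, and Adgre1, Marco, Clec4f, Timd4 and Tyrobp were at 0 in every library. Of 10 fibroblast and stellate cell markers 7 were tested, 5 rose and none fell, while 23.6% of all tested genes rose and 23.6% fell. Col1a2 and Acta2 passed the filter in 4 knockout libraries but in only 3 and 1 of the wild-type libraries, so this count is a description. The sum of the fibroblast and stellate cell markers was 432 to 464 CPM in the knockout and 109 to 120 CPM in the wild type. Nearly all of it was Col3a1, while Lum and Lrat were at 0 and Dcn had 5 counts in 1 library. Col1a2 also rose, from 0.437 ± 0.263 to 5.35 ± 0.59 CPM (edgeR, adjusted p = 1.06e-06), as did Des, from 2.37 ± 0.14 to 7.93 ± 1.03 CPM (adjusted p = 1.48e-07). Acta2 rose from 0.094 ± 0.078 to 0.854 ± 0.262 CPM (adjusted p = 0.000881) and Col1a1 from 1.74 ± 0.43 to 2.53 ± 0.30 CPM (adjusted p = 0.0391). The labels name only the hepatoma line for all libraries. Whether any other cells were present, with a part in the rise of the complement genes, was not tested.

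Genes whose pattern over the 8 libraries was most like a member's were sought among the 8879 genes averaging 10 CPM or more. The measure was the root mean square difference of centered log2 CPM, with 0.5 added to each CPM first. This is a description, and most of it is the difference between the groups. For Clu they were Xdh (0.0717), Uchl1 (0.081) and H2-D1 (0.0815). H2-D1, an MHC class I heavy chain, went from 170 to 547 CPM. For C1s1 they were Aqp1 (0.182), Endod1 (0.220) and C920009B18Rik (0.254), and for C3 they were Sdc3 (0.117), Smpdl3b (0.117) and Col6a1 (0.129). C1s1 averaged 0.37 CPM in the wild type, so the added 0.5 made its 11.3-fold rise smaller in this measure. Its nearest gene, Aqp1, went from 14.5 to 75.7 CPM, so likeness to C1s1 here does not mean an equal rise.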

How the data were processed

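Poly-A RNA was measured in 8 libraries, 4 per genotype. TRIzol extraction and a SMARTer mRNA kit are named in the labels' protocols. FastQC, Trimmomatic, HISAT2 and GRCm38.p6 are listed, per the submitters' processing notes, with no role. Which program counted reads, with what strand setting and annotation, is not stated in the labels or file headers.

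The authors deposited whole-number counts per transcript, not normalized. The design had assumed counts per gene. Of 115220 transcripts, 114332 (99.23%) matched GENCODE mouse release 21 and were summed to 47434 genes. The 888 unmatched transcripts, 0.148% to 0.17% of a library, were left out. Reads of near-identical copies and overlapping genes may be assigned to either gene.

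The groups were compared by edgeR 4.0.16 (R 4.3.3), with its two-sided quasi-likelihood test (TMM, filterByExpr with a minimum count of 10, Benjamini-Hochberg adjustment over 15840 genes). SEs were derived from the log2 fold change and F. TPM were computed from annotated transcript lengths. Promoters came from RefSeq, GRCm38.p6. Data were simulated for this comparison (15484 genes), with 67 genes changed 1.5-fold, 67 changed 2-fold and 66 changed 4-fold. Of these, 82.1%, 94% and 100% were called, and 4.66% of calls were false. The changed genes were far fewer than the 7476 called in the data and were drawn only from genes above a minimum level. Genes below that level, which these shares do not cover, included C2, C4b, C1rb, C9, Cpn1, Masp1 and Clstn3. Hpx, Lbp, Serpina3n, Acta2 and Ptprc also lay below it. Limits for a count of 0 cover counting error only, since PCR copies of a molecule are counted as separate reads.

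The members and gene lists were chosen with earlier results of these data known. Named are the 9 members, Ehmt2, tested genes of the complement lists, up to 4 genes of lowest p of each other list and the 3 genes most like Clu, C1s1 and C3. Genes at 0 counts, Itgax, Clstn3, Pex5, Lpcat3, Lrp8 and Col1a1 were named after their values were seen. Some listed genes are not reported here by name. The alternatives were DESeq2 1.42.0, limma-voom (limma 3.58.1), other scalings and filters, a 1.5-fold test, a replicate block, coding transcripts only, summed copies, neighbors' shift and each library left out.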

Additional observations from a re-analysis of the deposited data

Results flagged for a closer look

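In 2 of 16 groups of 4 libraries, 1 library lay far from the others (by Dixon's 95% criterion on the gap over the range, which chance meets in about 1 of 20 groups). C1ra was at 0.575 CPM in wild-type replicate 2, against 0.143 to 0.163 CPM in the other wild-type libraries. Cfb was at 1.349 CPM in wild-type replicate 4, against 1.17 to 1.20 CPM in the others, a narrow range in which the gap is small.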

How the results depend on the processing

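The 6 genes that rose kept their direction and call in 106 of 107 settings. The exception was C4b, whose log2 fold change summed with C4a was 0.304 (edgeR, adjusted p = 0.314). Without single libraries C4b was at 2.95 to 3.78 and stayed called. Cfb, not called in any setting, turned to 0.002 and 0.131 without knockout replicates 1 and 4, in a range from -0.318. Relative to its neighbors Serping1 stood at 1.90. Against a 1.5-fold change 1656 genes were called in place of 7476, and 11 complement genes in place of 17. Among genes reaching 5 CPM in either group 7 complement genes were called, because fewer were tested. Leaving out single libraries gave 6863 to 7659 called genes and 13 to 17 complement genes. Scaled by library size without TMM, 4543 genes rose and 2742 fell, against 3742 and 3734, and the median log2 fold change of all genes was 0.084. The replicate numbers do not pair the libraries: correlations of same-numbered deviations were between -0.302 and 0.283, and not every library correlated best with its own number. The replicate block gave 7255 called genes and 15 complement genes. C2 could not be tested on coding transcripts alone. Depth limits the genes under 1.2 CPM in every library, among them C2, C4b, C1rb, C9, Cpn1, Masp1, Acta2 and Serpina3n.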

Other observations

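Clstn3, a synaptic adhesion gene beside the C1r and C1s genes on chromosome 6, rose from 0.053 to 1.24 CPM (edgeR log2 fold change 4.49 ± 0.84, SE, adjusted p = 0.00062, 4 libraries per group). The summed TPM of C1rl, C1ra, C1s1, C1rb and C1s2 was 12.7 ± 0.78 in the knockout and 1.70 ± 0.17 in the wild type (SD, n = 4). Per Serping1, the summed C1r and C1s TPM was 3.92 ± 0.65 in the knockout and 1.21 ± 0.31 in the wild type.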
